A study of Mus musculus with 32 samples.

Results

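The measurements described here are the messenger RNA profiles of sorted Six2-lineage cells from mouse kidneys at embryonic day E14.5, compared between embryos that expressed the T1 allele of ENL in this lineage and embryos that did not. Libraries were taken by their titles alone: 3 of Six2-ENL T1 and 3 of ENL WT, which makes 6 of the 32 samples of the series, and no library of another stage or tissue entered the fit. ENL T1 mice carry an in-frame insertion in *Mllt1*, the gene for ENL, on 1 of the 2 alleles, and their genotype is given as Six2-TGCtg/+;EnlT1/+. Control embryos are given as Six2-TGCtg/+;Enl+/+. Both groups therefore carried the Six2-TGC transgene, a bacterial artificial chromosome from which the *Six2* promoter drives a GFP-Cre fusion, and both carried a Cre-dependent tdTomato reporter under the CAG promoter, on a C57BL/6J backcross. In the conditional T1 allele the floxed wild-type exons are removed by Cre, after which the mutant protein is made from the endogenous promoter. Cells positive for tdTomato were collected by flow cytometry, so that a cell was kept if it or an ancestor had expressed Cre, whether or not it still expressed *Six2*.

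As background, Six2-expressing cells of the cap mesenchyme are the progenitors of the nephron epithelium. They either renew or, in response to Wnt signals from the ureteric bud, form renal vesicles that become glomerular podocytes and tubules. ENL binds acetylated histones through its YEATS domain and recruits the machinery of transcription elongation, and *Hox* genes are among its best-known targets. Hox proteins are transcription factors that give cells their place along the body axis, and the paralogues of group 11 are required for kidney formation.

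The T1 insertion lies in coding exon 4 of *Mllt1*, in the part that encodes the YEATS domain, and the reference sequence around it is shown because every comparison below rests on this change. The stretch is GRCm38 chr17:56905751-56905819 on the minus strand, read 5′ to 3′, and the capitals mark the 3 codons directly before the insertion (chr17:56905781-56905789).
Mllt1: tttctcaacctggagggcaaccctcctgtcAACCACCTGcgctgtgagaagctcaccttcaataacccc
The deposited counts do not separate mutant from wild-type transcripts, so they cannot show the recombined allele. *Mllt1* itself had 236.3, 231.8 and 241.1 CPM (counts relative to the library's total, corrected by the trimmed mean of M-values) in ENL WT replicates 1, 2 and 3, and 217.7, 216.4 and 209.2 CPM in Six2-ENL T1 replicates 1, 2 and 3. The groups did not overlap, and the difference of −0.14 ± 0.04 (standard error, SE) on the log2 scale had an adjusted p of 0.0436 with edgeR's quasi-likelihood test. This was far below the 1.5-fold change asked of a call, and without 1 library the adjusted p reached 0.148. In all that follows, a gene was called when it changed by more than 1.5-fold and its Benjamini-Hochberg adjusted p in this test was under 0.05, values per library are given in the order of replicates 1, 2 and 3, and errors of log2 fold changes are SE.

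The 6 libraries held 115625561 to 137888792 counts each, at which 3 counts correspond to 0.0221 to 0.0256 CPM. Neither the labels nor the methods say whether a library stands for 1 embryo or several, so p-values measure the spread between these libraries. An exact permutation test of 3 against 3 libraries cannot give a two-sided p under 0.1, and single genes were therefore tested only in the model across all genes. Nephron progenitor genes were detected at high levels in both groups, with *Six2* at 836.8, 962.6 and 877.2 CPM in ENL WT. Markers of endothelium (sums over 14 genes of 51.7 to 81.9 CPM), macrophages and white cells (14 genes, 28.1 to 140.0 CPM) and red cells (12 genes, 1.92 to 129.8 CPM) were low in every library. Red cell sums were uneven, at 1.92, 50.7 and 118.1 CPM in ENL WT and 129.8, 68.6 and 105.3 CPM in Six2-ENL T1. So were white cell sums, at 28.1, 42.0 and 140.0 CPM in ENL WT and 59.9, 65.0 and 126.1 CPM in Six2-ENL T1. Stroma markers were not low, with sums over 15 genes of 544.6, 546.4 and 721.3 CPM in ENL WT and higher sums, given below, in Six2-ENL T1. The embryos were not matched for sex, since Y-linked transcripts were present in 1 ENL WT and 2 Six2-ENL T1 libraries.

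Of 22387 genes tested, 921 (4.11%) were called higher and 511 (2.28%) lower in Six2-ENL T1, so that 6.4% were called in all. In 1430 of the 1432 called genes the libraries of the 2 groups did not overlap, against 31.8% of all genes tested. The calls were made on these same libraries, so the separation of called genes, here and below, describes them and adds no support. Increases were larger than decreases, with a median log2 fold change of 1.29 among genes called higher and −0.93 among those called lower, while the median over all tested genes was 0.003. A change over 4-fold was fitted for 235 of the genes called higher and 44 of those called lower. Protein-coding genes made up 839 of the higher and 460 of the lower calls. Because the samples are bulk RNA, fewer cells of a type and less RNA per cell cannot be told apart.

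*Hox* genes were called higher in every cluster. Of 39 genes, 35 were tested, 24 (68.6%, against 4.11% of all tested genes) were called higher, none was called lower, and the median log2 fold change was 0.88. All 35 fitted changes were positive, including those of the 11 genes that were not called. Their summed level was 1294.7, 1377.9 and 1310.2 CPM in ENL WT and 2538.7, 2567.3 and 2526.5 CPM in Six2-ENL T1. By cluster, 10 of 11 tested Hoxa genes, 7 of 7 Hoxc genes and 5 of 8 Hoxd genes were called higher, against 2 of 9 Hoxb genes, *Hoxb1* and *Hoxb9*. The summed Hoxb level was 177.7, 180.8 and 178.3 CPM in ENL WT and 250.4, 267.9 and 266.2 CPM in Six2-ENL T1, with every mutant library above the controls. *Hoxb4* lay at the 1.5-fold limit (0.58 ± 0.1, adjusted p = 0.00579) and was called, at 0.59 to 0.63, under 5 of the alternatives, 3 of which left out 1 library.

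*Hoxa5* (chr6:52201754-52204587) had the largest rise among *Hox* genes with more than 3 counts in every library. It was measured at 25.8, 23.9 and 26.2 CPM in ENL WT and at 87.5, 96.3 and 98.6 CPM in Six2-ENL T1, a log2 fold change of 1.89 ± 0.07 (adjusted p = 5e-06). The lowest Six2-ENL T1 library lay far above the highest ENL WT library. *Hoxd12* (chr2:74675013-74677705), a gene of the posterior end of its cluster, went from 80.3, 88.5 and 74.1 CPM to 292.6, 294.8 and 278.3 CPM (1.83 ± 0.07, adjusted p = 5.57e-06). *Hoxc10* (chr15:102966796-102971893) had the smallest spread, with 124.9, 121.3 and 128.0 CPM against 359.8, 354.5 and 357.5 CPM (1.52 ± 0.04, adjusted p = 8.07e-07). Its neighbour *Hoxc11* was at 7.9, 9.37 and 9.28 CPM in ENL WT and 27.9, 29.5 and 27.6 CPM in Six2-ENL T1 (1.68 ± 0.09, adjusted p = 3.56e-05). These posterior genes had the groups apart by several times the range within a group. *Hoxa6* rose by a log2 fold change of 1.74 ± 0.1 and *Hoxa9* by 1.09 ± 0.06, the latter from 80.0, 92.1 and 90.9 CPM to 188.1, 186.7 and 185.1 CPM.

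*Hoxa13*, at the end of the Hoxa cluster (chr6:52257694-52260880), was close to absent in the controls. Its counts were 3, 0 and 1 in ENL WT and 158, 90 and 87 in Six2-ENL T1 (adjusted p = 0.000943), and no fold change is given because the ENL WT counts were at or under 3. In Six2-ENL T1 this was still only 1.17, 0.768 and 0.653 CPM. The calls of 2 other *Hox* genes were weak: *Hoxd1* (0.88 ± 0.21) and *Hoxc5* (0.6 ± 0.13) each lost their call when any 1 of 5 libraries was left out, with adjusted p up to 0.107 for *Hoxd1*, without ENL WT replicate 2, and up to 0.0768 for *Hoxc5*, also without ENL WT replicate 2.

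Of the group 11 genes, expressed in the cap mesenchyme of the normal kidney, *Hoxa11* and *Hoxd11* had log2 fold changes below the median of the list and *Hoxc11* above it. *Hoxa11* went from 77.2, 87.0 and 82.6 CPM to 130.1, 124.6 and 122.5 CPM (0.61 ± 0.05, adjusted p = 0.000358), and *Hoxd11* from 126.2, 121.4 and 123.1 CPM to 200.2, 205.7 and 180.6 CPM (0.66 ± 0.05, adjusted p = 0.000218). Both groups of libraries were again separate. For *Hoxa11*, 35.0% of the exon length overlaps another gene, and since reads were counted without regard to strand its antisense transcript cannot be told apart from it. Without ENL WT replicate 1 its log2 fold change was 0.57, just under the limit for a call. *Hoxa10* had 308.7, 350.2 and 313.8 CPM against 450.6, 441.5 and 440.5 CPM, a difference of 0.45 that did not reach 1.5-fold.

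**Figure D1:**
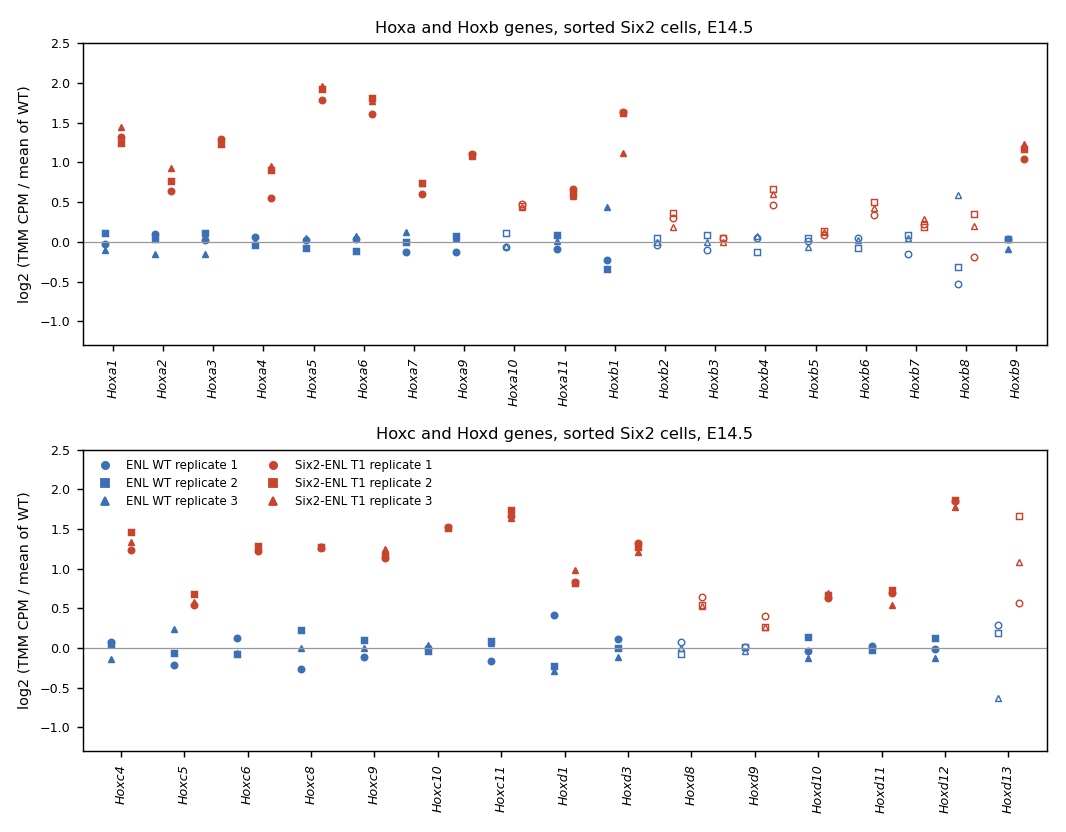
Levels of the tested *Hox* genes in the 6 sorted E14.5 libraries, as log2 of CPM over the ENL WT mean of each gene (y axis), in the order of the Hoxa, Hoxb, Hoxc and Hoxd clusters (x axis). Blue is ENL WT and red Six2-ENL T1, circles, squares and triangles are replicates 1, 2 and 3, and filled symbols are called genes. *Hoxa13* is left out because an ENL WT library held 0 counts. A reader should see 23 genes drawn with filled symbols and the Hoxb genes, apart from *Hoxb1* and *Hoxb9*, with open symbols.

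The stretches of 100 bases directly before the RefSeq transcription start are shown for *Hoxa5*, for the gene that was nearly absent in controls and for the largest rise in the Hoxd cluster (GRCm38.p6, 5′ to 3′ on the strand of the gene). Capitals mark a CCAAT box, the letters CCAAT, searched on both strands. They stand at *Hoxa5* chr6:52204588-52204687 (minus), *Hoxa13* chr6:52260881-52260980 (minus) and *Hoxd12* chr2:74674913-74675012 (plus).
Hoxa5: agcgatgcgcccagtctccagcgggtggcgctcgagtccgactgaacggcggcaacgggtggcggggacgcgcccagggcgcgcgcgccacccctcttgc
Hoxa13: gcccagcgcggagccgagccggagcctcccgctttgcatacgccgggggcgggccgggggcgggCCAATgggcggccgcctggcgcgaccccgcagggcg
Hoxd12: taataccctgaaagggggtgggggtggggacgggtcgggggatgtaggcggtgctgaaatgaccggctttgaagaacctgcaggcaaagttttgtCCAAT
The *Hoxa5* and *Hoxa13* windows held 16 CG steps each and were 76.0% and 83.0% G or C, while that of *Hoxd12* held 4 CG steps. The letters CCAAT occurred in *Hoxa13* at −36 to −32 and in *Hoxd12* at −5 to −1, and they occur in 18.9% of the 32851 windows of this length.

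An antisense transcript within the Hoxb cluster, *Hoxb5os*, rose although most Hoxb genes were not called. It had 24.5, 23.2 and 25.9 CPM in ENL WT and 98.7, 103.6 and 101.9 CPM in Six2-ENL T1 (2.05 ± 0.06, adjusted p = 1.1e-06), and 14.4% of its exons overlap another gene. Among 9 genes for the cofactors that bind DNA together with Hox proteins, 1 (11.1%) was called higher, against 4.11% of all tested genes, and none lower. This was *Meis1*, at 72.8, 64.3 and 60.1 CPM in ENL WT and 105.8, 96.5 and 104.7 CPM in Six2-ENL T1 (0.64 ± 0.08, adjusted p = 0.00125), with 18.3% of its exon length shared; without ENL WT replicate 3 the change was 0.58 and under the limit. Of 22 genes for ENL's partners in the elongation and DOT1L complexes, 1 (4.55%) was called higher, near the 4.11% of all tested genes, and none lower. It was *Ell2*, an elongation factor (6.58, 6.97 and 7.84 CPM against 12.5, 12.6 and 10.6 CPM, 0.74 ± 0.11, adjusted p = 0.00416).

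Among genes of the self-renewing progenitor the calls were decreases. Of 21 tested, 11 (52.4%) were called lower, against 2.28% of all tested genes, and none was called higher. Another 10 were not called, 3 of them with positive values, and the median log2 fold change of the 21 was −0.66. Their summed level was 4053.5, 4482.6 and 3976.6 CPM in ENL WT and 2652.7, 2843.8 and 2531.4 CPM in Six2-ENL T1. *Six2* (chr17:85684277-85688274), which keeps the progenitor state, fell from 836.8, 962.6 and 877.2 CPM to 536.2, 556.5 and 407.3 CPM (−0.84 ± 0.11, adjusted p = 0.00211). Its highest Six2-ENL T1 value was well below its lowest ENL WT value, with the lowest of all in Six2-ENL T1 replicate 3.

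*Cited1* (chrX:102247381-102252181), which marks the least committed progenitors, had 40.3, 41.2 and 38.5 CPM in ENL WT and 19.3, 18.2 and 17.6 CPM in Six2-ENL T1 (−1.12 ± 0.07, adjusted p = 5.37e-05). *Osr1*, an early factor of the kidney mesenchyme, went from 190.8, 254.5 and 203.0 CPM to 101.8, 98.5 and 87.9 CPM (−1.17 ± 0.11, adjusted p = 0.000367). *Crym*, which encodes a thyroid hormone-binding protein, was at 265.4, 278.8 and 228.4 CPM against 116.1, 121.1 and 106.3 CPM (−1.17 ± 0.08, adjusted p = 9.24e-05). Every mutant library of these 3 genes lay well under the lowest control library. *Meox2*, a homeobox gene, had the largest fall of the list, from 33.1, 36.1 and 28.3 CPM to 12.8, 14.1 and 10.8 CPM (−1.38 ± 0.12, adjusted p = 0.000364). *Itga8*, the integrin subunit that binds nephronectin of the ureteric bud, fell from 204.1, 231.8 and 182.0 CPM to 101.5, 100.2 and 95.3 CPM (−1.06 ± 0.08, adjusted p = 0.000158). The matrix proteoglycan gene *Spock2* fell from 175.3, 158.6 and 147.0 CPM to 75.4, 83.8 and 83.5 CPM (−0.99 ± 0.07, adjusted p = 0.000135). *Eya1*, which encodes a coactivator of *Six2*, fell less, from 358.6, 418.9 and 329.3 CPM to 235.9, 242.8 and 219.9 CPM (−0.66 ± 0.08, adjusted p = 0.00167), and without ENL WT replicate 2 its change of −0.56 was under the limit. *Capn6* (−0.7), *Phf19* (−0.73) and *Fgf20* (−0.74, 12% of exon length shared) completed the 11. *Wt1*, which is needed for progenitors and podocytes alike, differed by −0.43, *Uncx* by −0.34 and *Sall1* by −0.27, none of which reached 1.5-fold.

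Among 23 genes of nephron commitment and the renal vesicle, 4 (17.4%) were called lower and none higher, against 2.28% and 4.11% of all tested genes. *Lhx1* (chr11:84518284-84525535), a LIM homeobox gene of the renal vesicle, fell from 169.8, 136.7 and 156.0 CPM to 59.8, 81.3 and 73.4 CPM (−1.11 ± 0.12, adjusted p = 0.000751). *Osr2*, which is expressed as tubules form, fell from 131.5, 136.5 and 183.9 CPM to 74.5, 81.5 and 75.4 CPM (−0.97 ± 0.12, adjusted p = 0.0015). The Notch ligand gene *Dll1* (−0.82, adjusted p = 0.0106, 20.6% of exon length shared) and the Notch target *Hes5* (−1.27, adjusted p = 0.0187, 31.8% shared) were the other 2. The call of *Hes5* was lost without Six2-ENL T1 replicate 1 (adjusted p = 0.075) or replicate 3 (0.0658). *Wnt4*, the Wnt ligand that drives the change from mesenchyme to epithelium, was not called, with 278.2, 224.3 and 306.1 CPM in ENL WT and 338.1, 339.0 and 290.5 CPM in Six2-ENL T1 (0.26, adjusted p = 0.174). The libraries of the 2 groups overlapped for *Wnt4*.

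**Figure D2:**
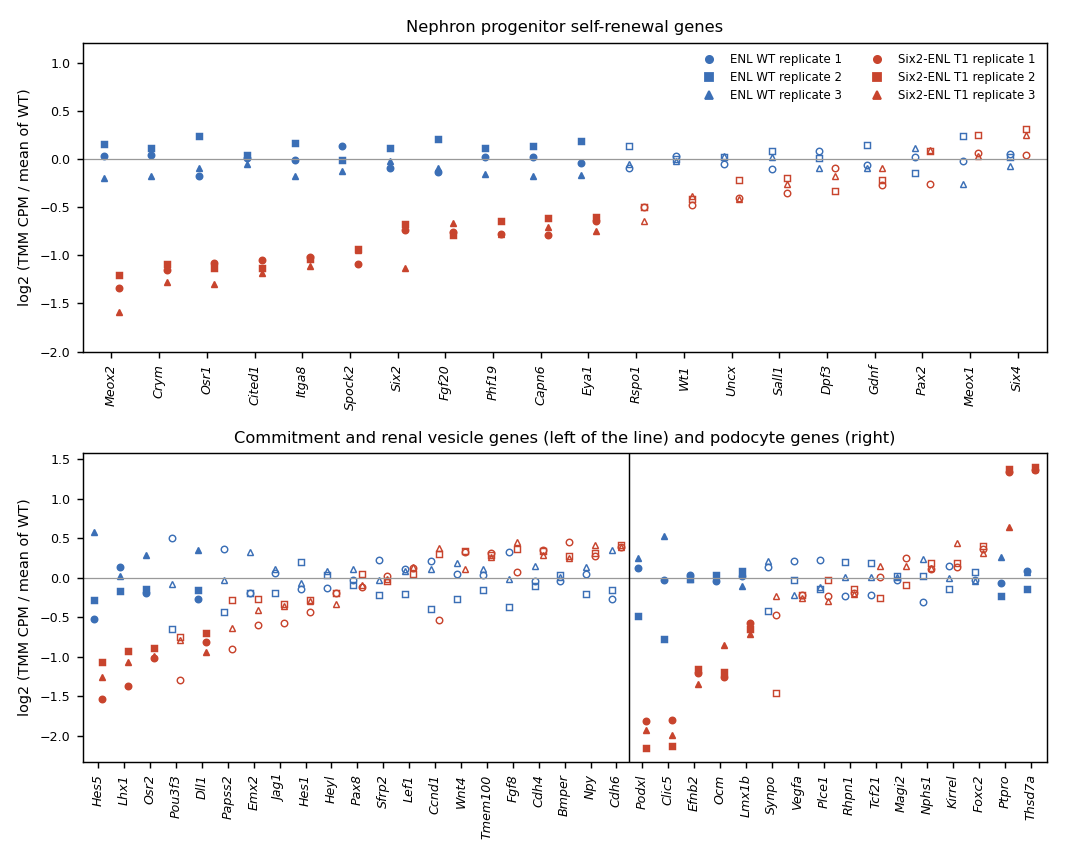
Genes of nephron progenitors (upper panel) and of nephron commitment and podocytes (lower panel, divided by a line) in the 6 sorted E14.5 libraries. The y axis is log2 of CPM over the ENL WT mean of each gene, colours and shapes are as in the plot of *Hox* genes, filled symbols are called genes, and 3 genes with low counts and 1 podocyte gene are left out. The Six2-ENL T1 symbols of the 11 called progenitor genes lie below all ENL WT symbols, and of the podocyte genes shown 5 were called lower and 2 higher.

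Podocyte genes were lower in 6 (35.3%) and higher in 2 (11.8%) of 17 tested, against 2.28% and 4.11% of all tested genes. *Podxl*, the sialomucin of the podocyte surface, was at 11.9, 7.75 and 13.0 CPM in ENL WT and at 3.09, 2.45 and 2.86 CPM in Six2-ENL T1 (−1.96 ± 0.2, adjusted p = 0.000647). Its mutant libraries lay close together and far below those of ENL WT. *Efnb2*, which encodes the ligand ephrin-B2, fell from 112.1, 108.4 and 108.0 CPM to 47.3, 49.3 and 43.0 CPM (−1.23 ± 0.06, adjusted p = 2.07e-05). *Clic5* (−1.96 ± 0.32, adjusted p = 0.00537), *Ocm* (−1.09 ± 0.12, adjusted p = 0.000943) and *Lmx1b* (−0.65 ± 0.08, adjusted p = 0.00176) were also called lower. *Thsd7a* went the other way, from 1.28, 1.09 and 1.27 CPM to 3.12, 3.18 and 3.14 CPM (1.37 ± 0.15, adjusted p = 0.000936), and so did *Ptpro*, a receptor phosphatase of podocyte foot processes, from 5.64, 5.07 and 7.12 CPM to 15, 15.4 and 9.23 CPM (1.15 ± 0.21, adjusted p = 0.00898). The slit diaphragm gene *Nphs1* was at 0.591, 0.744 and 0.863 CPM in ENL WT here, against 194.7, 209.3 and 184.3 CPM in the ENL WT cells of E18.5.

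Of genes of tubule segments, 1 (7.14%) was called higher and 2 (14.3%) lower of 14 tested for the proximal tubule, and 2 (18.2%) lower of 11 tested for the loop of Henle and distal tubule, against 4.11% higher and 2.28% lower over all genes. *Sim1* fell from 19.7, 10.5 and 12.5 CPM to 4.88, 5.71 and 7.59 CPM (−1.23 ± 0.25, adjusted p = 0.0139), a call lost without Six2-ENL T1 replicate 1 (adjusted p = 0.0582) or replicate 2 (0.0541). The water channel gene *Aqp1* was called higher from levels of 0.17, 0.0957 and 0.261 CPM to 1.19, 0.29 and 1.15 CPM, and lost the call when any 1 of 4 libraries was left out, with adjusted p up to 0.123 without ENL WT replicate 2. *Atp1b1* (−0.62, adjusted p = 0.04, 18.7% of exon length shared) lost its call when any 1 of 5 libraries was left out, with adjusted p up to 0.127 without Six2-ENL T1 replicate 1. For *Hnf4a*, the main regulator of the proximal tubule, the difference was −1.71 (adjusted p = 0.0735), and for *Umod*, of the thick ascending limb, −2.25 (adjusted p = 0.0516), neither of which was called, although both passed with edgeR's exact test (adjusted p = 0.0149 and 0.00891).

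Members of the Wnt pathway were called in 21 of 52 tested, 15 (28.8%) higher and 6 (11.5%) lower, against 4.11% and 2.28% of all tested genes. Replicate 2, the Six2-ENL T1 library with the lowest sum of stroma markers, was the lowest mutant library for 28 of the 52. The part of stromal cells in these changes was not tested. Among ligands, *Wnt5a*, which mostly signals without β-catenin, rose from 4.54, 4.9 and 7.44 CPM to 30.2, 26.3 and 32.7 CPM (2.4 ± 0.19, adjusted p = 0.000174). *Wnt2* rose from 0.462, 1.22 and 0.712 CPM to 7.54, 7.13 and 7.83 CPM (3.23 ± 0.31, adjusted p = 0.000451), and *Wnt2b* by 2.63 ± 0.5 from under 0.2 CPM. For *Wnt5a* and *Wnt2* the lowest Six2-ENL T1 library was several times as high as the highest ENL WT library. *Wnt11*, made by ureteric tips in the normal kidney, had 14.3, 22.0 and 26.5 CPM against 38.3, 32.5 and 36.6 CPM (0.77, adjusted p = 0.0336), and lost its call when any 1 of 5 libraries was left out, with adjusted p up to 0.104 without Six2-ENL T1 replicate 1. Among receptors, *Fzd10* rose from 12.7, 13.4 and 17.6 CPM to 33.0, 32.2 and 32.6 CPM (1.16 ± 0.12, adjusted p = 0.000713) and *Fzd1* from 41.1, 40.2 and 53.4 CPM to 117.7, 93.0 and 111.9 CPM (1.26 ± 0.12, adjusted p = 0.000553), while *Fzd4* fell by 0.7 ± 0.06 on the log2 scale (adjusted p = 0.000215).

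Genes for antagonists of Wnt and related proteins were among those called higher. *Frzb*, a decoy receptor, rose from 98.9, 100.3 and 100.4 CPM to 177.2, 171.2 and 164.0 CPM (0.77 ± 0.04, adjusted p = 3.96e-05). *Wif1* (2.22 ± 0.3), *Dkk3* (1.29 ± 0.17), *Apcdd1* (1.06 ± 0.12), *Dkk2* (1.05 ± 0.19), *Sfrp1* (0.8 ± 0.12) and *Nkd1* (0.62 ± 0.08) also passed the test, although without ENL WT replicate 1 the change of *Nkd1* was 0.56 and under the limit. *Dkk1*, another antagonist, fell from 27.1, 20.8 and 23.7 CPM to 11.7, 13.9 and 16.6 CPM (−0.76 ± 0.14, adjusted p = 0.0105). *Tcf7l1*, which encodes a repressor of Wnt target genes, fell from 214.1, 225.8 and 194.1 CPM to 126.7, 119.5 and 122.0 CPM (−0.78 ± 0.06, adjusted p = 0.000144). *Axin2*, a general target of β-catenin signalling, was not called (0.11, adjusted p = 0.575).

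In the Hedgehog pathway 3 (25.0%) of 12 tested genes were called higher and 1 (8.33%) lower, against 4.11% and 2.28% of all tested genes. The target gene *Gli1* rose from 5.03, 7.3 and 6.43 CPM to 14, 10.7 and 12.5 CPM (0.99 ± 0.16, adjusted p = 0.00499), the transcription factor gene *Gli2* by 1.11 ± 0.14, and *Hhip*, a target that binds the ligand, from 3.52, 3.09 and 3.11 CPM to 8.86, 9.58 and 9.94 CPM (1.55 ± 0.11, adjusted p = 0.000112). *Gas1*, a co-receptor, fell from 845.1, 1000.7 and 749.0 CPM to 515.7, 516.7 and 492.8 CPM (−0.77 ± 0.09, adjusted p = 0.00134, 19.9% of exon length shared). In the BMP pathway 7 (22.6%) of 31 were called higher and 1 (3.23%) lower, the latter near the 2.28% of all tested genes. Replicate 2 was the lowest mutant library for 17 of the 31. The part of stromal cells in the Hedgehog and BMP changes was not tested. Extracellular antagonists were prominent, with *Nog*, the gene for noggin, going from 3.91, 2.81 and 4.92 CPM to 11.1, 11.7 and 11.7 CPM (1.57 ± 0.19, adjusted p = 0.00125), *Grem1* rising by 2.11 ± 0.27 and *Chrd* by 1.53 ± 0.17. The BMP target genes *Id1* (0.82 ± 0.08) and *Id2* (0.77 ± 0.06) were also higher. The ligand gene *Bmp7*, which keeps progenitors alive, fell from 426.3, 435.6 and 400.6 CPM to 238.2, 243.8 and 223.2 CPM (−0.84 ± 0.05, adjusted p = 4.64e-05).

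The GDNF receptor subunits moved in opposite directions. *Gfra2* (chr14:70890120-70979838), the co-receptor for neurturin, rose from 1.93, 2.48 and 2.83 CPM to 31.3, 27.5 and 30.2 CPM (3.62 ± 0.15, adjusted p = 1.09e-05). *Gfra1*, the co-receptor for GDNF, fell from 204.4, 239.1 and 200.0 CPM to 113.6, 119.5 and 98.8 CPM (−0.96 ± 0.09, adjusted p = 0.000397). *Robo2*, whose receptor limits where GDNF is made, fell from 484.2, 549.8 and 417.4 CPM to 292.0, 298.9 and 276.0 CPM (−0.74 ± 0.09, adjusted p = 0.00136). For all 3 genes the groups did not overlap. Over the list of 23 genes of FGF and GDNF signalling, 3 (13.0%) were called higher and 3 (13.0%) lower, against 4.11% and 2.28% of all tested genes. Of 33 cell cycle genes, 1 (3.03%) was called higher, near the share of all tested genes, and none lower. It was *Ccnd2*, for cyclin D2, at 406.7, 352.3 and 351.2 CPM in ENL WT and 655.5, 619.4 and 698.4 CPM in Six2-ENL T1 (0.83 ± 0.07, adjusted p = 0.000222). *Mki67*, a marker of dividing cells, differed by 0.19 (adjusted p = 0.105). In the IGF system 2 (13.3%) of 15 genes were called higher, the growth factor gene *Igf1* (2.25 ± 0.39) and *Igfbp3* (1.18 ± 0.21), and none lower.

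**Figure D3:**
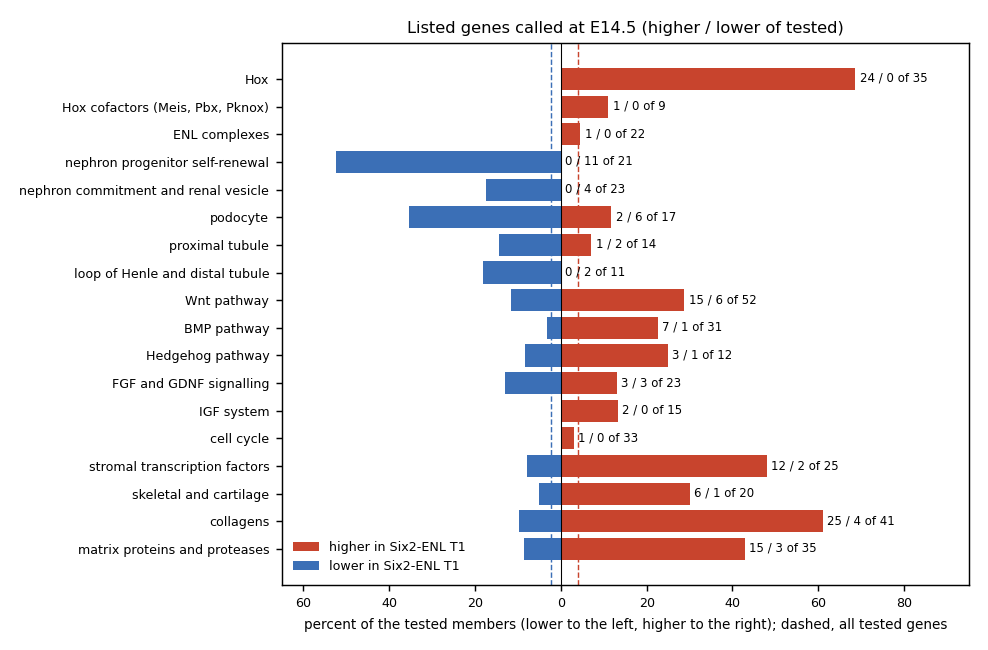
Percent of the tested genes of each list that were called higher (red) or lower (blue) in Six2-ENL T1 at E14.5, on the x axis to the right and left of 0, with the lists on the y axis and the counts higher and lower of those tested beside the bars. Dashed lines are the percentages over all 22387 tested genes, 4.11% higher and 2.28% lower. *Hox* genes stand at 68.6% higher and progenitor genes at 52.4% lower, and collagens at 61.0% higher.

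Genes of the kidney stroma and of the extracellular matrix rose in the sorted cells. Of 15 stroma markers, 13 (86.7%) were called higher and 1 (6.67%) lower, against 4.11% and 2.28% of all tested genes. Some of them, *Col1a1* and *Foxd1* included, are also in the lists of collagens, matrix genes, stromal transcription factors or skeletal genes below. Those lists are therefore not separate results. The summed level of the 15 was 544.6, 546.4 and 721.3 CPM in ENL WT against 2550.4, 1187.2 and 2247.2 CPM in Six2-ENL T1. Six2-ENL T1 replicate 2 had the lowest mutant value for 14 of the 15. *Col1a1*, of fibrillar collagen, was at 88.0, 80.8 and 152.6 CPM in ENL WT and at 769.1, 339.9 and 669.9 CPM in Six2-ENL T1 (2.47 ± 0.33, adjusted p = 0.00238). *Dlk1*, for a Notch-like protein of mesenchymal cells, rose from 27.5, 18.9 and 25.7 CPM to 130.3, 68.1 and 108.6 CPM (2.09 ± 0.23, adjusted p = 0.000943). Both were higher in every mutant library and least so in replicate 2. *Foxd1*, the defining transcription factor of the stromal progenitor, fell instead, from 139.8, 164.6 and 144.1 CPM to 99.3, 69.1 and 62.2 CPM (−0.96 ± 0.16, adjusted p = 0.00571). None of the defining stroma markers was at 0 in any library. Expression of these genes in Six2-lineage cells and stromal cells carried through the sort cannot be told apart in bulk RNA.

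Of 25 transcription factors of stroma and mesenchyme, 12 (48.0%) were called higher and 2 (8.0%) lower, against 4.11% and 2.28% of all tested genes, with a median of 1.28. *Snai2*, of the epithelial to mesenchymal transition, rose from 23.4, 25.0 and 31.9 CPM to 96.3, 80.8 and 97.5 CPM (1.77 ± 0.12, adjusted p = 0.000112), and *Prrx1* from 12.9, 11.7 and 13.1 CPM to 29.9, 28.3 and 33.4 CPM (1.28 ± 0.09, adjusted p = 0.000104). *Gata2* rose from 5.77, 2.98 and 6.05 CPM to 29.1, 21.5 and 32.4 CPM (2.49 ± 0.27, adjusted p = 0.000821). Replicate 2 was the lowest mutant library for all of these and for 16 of the 25 genes. *Ebf3* (1.82 ± 0.18), *Gata6* (2.06 ± 0.33) and *Tshz3* (2.11 ± 0.47) were higher as well, *Tshz3* with an adjusted p of up to 0.07, without Six2-ENL T1 replicate 3, and no call without Six2-ENL T1 replicate 1 or ENL WT replicate 1 either. *Foxc1*, expressed in cap mesenchyme and podocytes too, fell from 386.4, 474.5 and 402.2 CPM to 229.8, 227.6 and 195.7 CPM (−0.95 ± 0.09, adjusted p = 0.000421).

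Collagens were called higher in 25 (61.0%) and lower in 4 (9.76%) of 41 tested, against 4.11% and 2.28% of all tested genes, with a median of 1.2. The sum over the list was 2471.9, 2347.7 and 2663.2 CPM in ENL WT and 4104.2, 2874.9 and 3936.7 CPM in Six2-ENL T1, and replicate 2 was the lowest mutant library for 29 of the 41. *Col25a1*, a transmembrane collagen, rose from 1.86, 2.43 and 1.71 CPM to 9.72, 8.09 and 10.4 CPM (2.23 ± 0.17, adjusted p = 0.000144), with little difference between the mutant libraries. *Col24a1* rose by 1.45 ± 0.26 (adjusted p = 0.00895). *Col4a1*, of basement membranes, fell from 639.7, 582.1 and 624.7 CPM to 377.4, 412.2 and 438.3 CPM (−0.59 ± 0.06, adjusted p = 0.000692), and its change was under 1.5-fold (−0.53 to −0.58) without Six2-ENL T1 replicate 1, ENL WT replicate 1 or ENL WT replicate 3. Among 35 matrix proteins and proteases, 15 (42.9%) were called higher and 3 (8.57%) lower, and replicate 2 was the lowest mutant library for 27 of the 35. *Eln*, which encodes elastin, rose from 5.05, 4.46 and 5.79 CPM to 37.2, 24.1 and 32.6 CPM (2.62 ± 0.17, adjusted p = 7.8e-05), and *Ogn* by 2.95 ± 0.28. *Adamts19* (0.95 ± 0.13) and *Adamts15* (0.63 ± 0.08, but 0.56 and under the limit without Six2-ENL T1 replicate 1) were higher, while the protease gene *Adamts12* fell by 1.8 ± 0.18 on the log2 scale and *Tnc*, the gene for tenascin C, fell from 121.6, 145.2 and 132.1 CPM to 67.3, 61.3 and 60.3 CPM (−1.08 ± 0.07, adjusted p = 9.59e-05). Of 20 tested genes of the skeleton and cartilage 6 were called higher and 1 lower, with the homeobox gene *Alx1* (2.63 ± 0.41) and the cartilage factor *Sox5* (1.53 ± 0.18) among the former.

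The part of stromal cell content in these results was not tested. The stroma marker sums of Six2-ENL T1 were 2550.4, 1187.2 and 2247.2 CPM, each above the ENL WT range of 544.6 to 721.3 CPM. The *Hox* sums of the same libraries differed little, at 2538.7, 2567.3 and 2526.5 CPM. Leaving out replicate 2 keeps replicates 1 and 3, which had the higher stroma sums, and so does not test stromal content. In that fit 23 *Hox* genes, 23 collagens and 13 stroma markers were called higher and 11 progenitor genes lower.

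**Figure D4:**
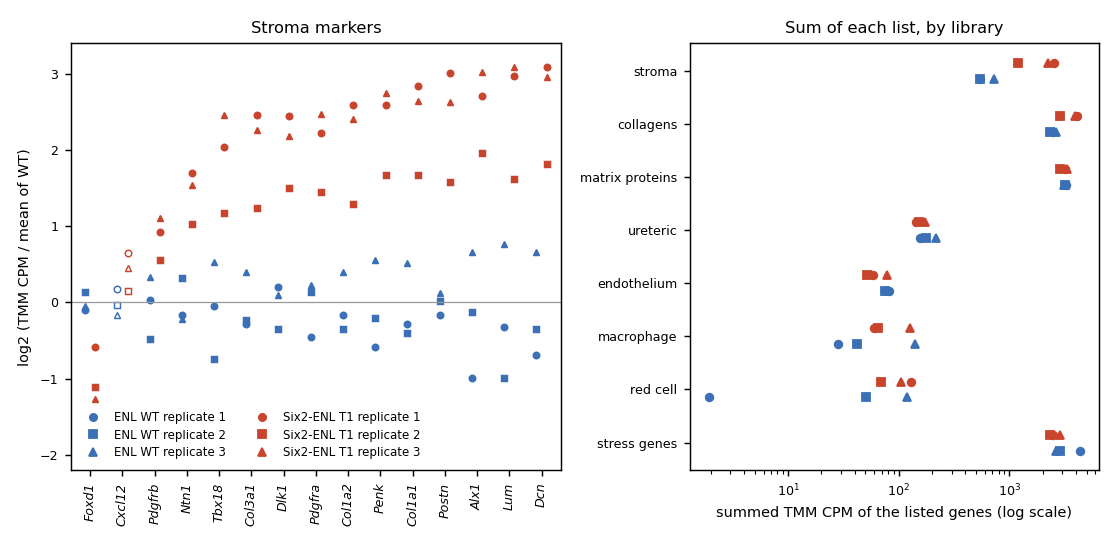
Stroma markers per library as log2 of CPM over the ENL WT mean (left) and summed CPM of 8 gene lists per library on a log axis (right) in the 6 sorted E14.5 libraries. Colours and shapes are as in the plot of *Hox* genes. The stroma sums of the 3 Six2-ENL T1 libraries (1187.2 to 2550.4 CPM) lie above those of ENL WT (544.6 to 721.3 CPM), with replicate 2, a square, the lowest of the mutants.

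Among markers of other cell types, some were called in both directions, to be read against 4.11% higher and 2.28% lower over all genes. None of 14 macrophage and white cell markers, 10 red cell markers and 3 adrenal and gonad markers was called. Among 13 ureteric epithelium markers 2 (15.4%) were called higher and 1 (7.69%) lower, among 14 endothelium markers 1 (7.14%) higher and 2 (14.3%) lower, among 12 neural markers 2 (16.7%) higher, and among 11 muscle and mural markers 3 (27.3%) higher and 1 (9.09%) lower. These shares rest on 1 to 3 genes each, and the part of these cells in the other results was not tested. Of 11 interferon response genes 1 was called higher. Of 19 genes induced by cell dissociation 3 were called higher and 1 lower, with summed levels of 4341.6, 2881.7 and 2648.9 CPM in ENL WT and 2477.3, 2328.0 and 2837.8 CPM in Six2-ENL T1. The called decrease was that of *Egr1*, an immediate early gene (1896.4, 1089.0 and 1030.3 CPM against 766.4, 675.7 and 829.7 CPM, −0.82, adjusted p = 0.0384). It rested on ENL WT replicate 1, without which the change was −0.49, and was also lost without any 1 Six2-ENL T1 library (adjusted p up to 0.124). *Six3*, which is carried in the Six2-TGC transgene of both groups, had 147.2, 165.5 and 160.7 CPM in ENL WT and 121.5, 130.5 and 120.2 CPM in Six2-ENL T1, a difference of −0.35 that did not reach 1.5-fold.

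Several genes with very low counts in the control cells became clearly expressed. *Sst* (chr16:23889573-23890958), which encodes the hormone somatostatin, had the largest change of all genes with more than 3 counts in every library. Its counts were 12, 14 and 7 in ENL WT and 3175, 2621 and 3234 in Six2-ENL T1, which is 0.0972, 0.103 and 0.0554 CPM against 23.6, 22.4 and 24.3 CPM (8.08 ± 0.17, adjusted p = 4.87e-07). The 3 mutant libraries agreed closely. The sequence before its start is shown because it holds the element through which cyclic AMP is known, from textbook work on this promoter, to act. The window ends at the RefSeq start, and the coordinates of the gene above are from GENCODE, where it reaches further upstream and includes the window. It is GRCm38.p6 chr16:23890845-23890944 on the minus strand, and the capitals mark the element TGACGTCA.
Sst: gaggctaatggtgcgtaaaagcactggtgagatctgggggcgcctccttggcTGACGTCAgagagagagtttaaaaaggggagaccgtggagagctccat
These letters were found at −48 to −41, on both strands alike since the element is a palindrome, and they occur in 1.15% of 32851 windows of this length.

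Other genes also rose from a low level. *Cbln2*, for a synaptic organiser, rose from 0.81, 0.722 and 0.728 CPM to 16.1, 14.7 and 17.7 CPM (4.42 ± 0.12, adjusted p = 1.1e-06). *Cnmd*, for the cartilage protein chondromodulin, rose from 0.794, 0.339 and 0.704 CPM to 10.2, 10.8 and 12.1 CPM (4.18 ± 0.28, adjusted p = 8.64e-05). In both genes the mutant libraries lay within a narrow range. *Dmrta1* (3.57 ± 0.38), *Ncam2* (4.0 ± 0.35), *Galnt13* (3.66 ± 0.48), *Myf6* (3.82 ± 0.51) and *Nnmt* (4.28 ± 0.65) followed among the largest increases, and so did *Cdh7* and *Olfm3*, for which an ENL WT library held 0 counts. The calls of *Nts*, *Ralyl* (35.6% of exon length shared) and *Slco1a4*, also among the 15 largest increases, were lost without Six2-ENL T1 replicate 1 (adjusted p = 0.0973, 0.0527 and 0.0504) and, for *Nts* and *Slco1a4*, without other libraries too. Among further genes, the angiotensin receptor gene *Agtr2* rose from 4.65, 2.61 and 4.22 CPM to 30.1, 9.0 and 23.5 CPM (2.45 ± 0.41, adjusted p = 0.00639). *Pgf*, for placental growth factor, fell from 65.1, 84.9 and 62.3 CPM to 19.8, 18.4 and 18.2 CPM (−1.91 ± 0.12, adjusted p = 5.39e-05), and *Fxyd6* by 0.84 ± 0.06 on the log2 scale.

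The largest decrease was that of *Tnnt2*, for cardiac troponin T, from 3.24, 2.62 and 1.84 CPM to 0.052, 0.0597 and 0.188 CPM (−4.66 ± 0.48, adjusted p = 0.000678). *Dync1i1*, a dynein chain gene, fell from 26.3, 33.1 and 28.4 CPM to 3.63, 2.8 and 2.5 CPM (−3.3 ± 0.16, adjusted p = 2.07e-05). *Dcx*, which encodes doublecortin of migrating neurons, fell from 51.7, 41.1 and 37.6 CPM to 7.7, 7.55 and 10.5 CPM (−2.34 ± 0.16, adjusted p = 0.000104). In all 3 genes the groups were far apart. *Mgam* (−4.15 ± 0.55), *Rxfp3* (−3.05 ± 0.28), *Insrr* (−3.04 ± 0.41) and *Cdhr1* (−3.03 ± 0.25) each fell by more than 3 on the log2 scale. Among decreases with the smallest p, the creatine kinase gene *Ckb* went from 214.0, 213.1 and 185.1 CPM to 75.3, 71.3 and 78.8 CPM (−1.44 ± 0.07, adjusted p = 1.97e-05), *Slc9a3r1* fell by 1.1 ± 0.05 and *Pla2g7* by 1.16 ± 0.05 (11.0% of exon length shared).

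The same cells were sorted at E18.5 from both genotypes, with 3 libraries each that are not shared with E14.5. Stage and dissociation cannot be told apart, since E18.5 kidneys were digested with collagenase and E14.5 kidneys with trypsin. At E18.5, 6.14% of 22685 tested genes were called higher and 5.54% lower. Of the 1367 genes called at E14.5 that were tested at E18.5, 445 were higher at both stages and 203 lower at both, while 41 went from higher at E14.5 to lower at E18.5 and 12 from lower to higher. In the test of the difference between the stages, 2059 (8.16%) of 25222 genes had an adjusted p under 0.05, with the E14.5 effect above the E18.5 effect in 51.7% of them. This split depended on the scaling, with 60.8% under the size factors of DESeq2 and 41.0% with library size alone, and the count was 1327 without E18.5 ENL WT replicate 2. The differences named next all passed this test unless a p is given.

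*Hox* genes were less raised at E14.5 than at E18.5. The difference passed the test for 22 of 36 genes, all with the smaller effect at E14.5, against 3.94% of all genes in that direction. The largest was *Hoxa11*, at 16.8, 17.4 and 20.4 CPM in ENL WT and 162.9, 162.1 and 167.7 CPM in Six2-ENL T1 at E18.5, where the control level was well below that of E14.5 (difference of log2 fold changes −2.57). For *Hoxc4* and *Hoxc6*, whose log2 fold changes of 1.34 and 1.25 at E14.5 stood beside 1.34 and 1.07 at E18.5, the test of the difference gave adjusted p of 1.0 and 0.449. *Cited1* fell less at E14.5, as its levels at E18.5 were 29.4, 38.7 and 42.9 CPM against 4.77, 6.05 and 7.01 CPM (difference 1.51). *Meox2* fell more at E14.5 (−1.38 against −0.38, difference −1.01).

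Podocyte genes had a median log2 fold change of −0.18 at E14.5 and −2.84 at E18.5. *Podxl* reached 1724.3, 1953.1 and 1677.1 CPM in E18.5 ENL WT and 72.8, 63.9 and 88.9 CPM in E18.5 Six2-ENL T1, a log2 fold change of −4.57 that exceeded the one at E14.5 (difference 2.61). *Thsd7a*, higher in the mutant at E14.5, was at 197.5, 233.7 and 198.5 CPM against 14.1, 12.8 and 15 CPM at E18.5 (−3.91, difference 5.27). Its sign turned between the stages, and its control level was low at E14.5. Of the podocyte genes, 12 had an E14.5 effect above that of E18.5 and 1 below it, against 4.22% of all genes above. Genes of commitment went the other way, with 8 of 23 at an effect that was lower at E14.5 and none higher, against 3.94% of all genes lower. At E18.5, 7 of them were called higher, among them *Wnt4* at 0.82. At E18.5, 12 of 14 macrophage and white cell markers (median log2 fold change 2.72) and 5 of 10 red cell markers (median 2.86) were called higher in Six2-ENL T1, and none of either list at E14.5. The difference between stages passed the test for 4 of the white cell markers and for none of 12 red cell markers. The part of these cells in the differences between stages was not tested.

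**Figure D5:**
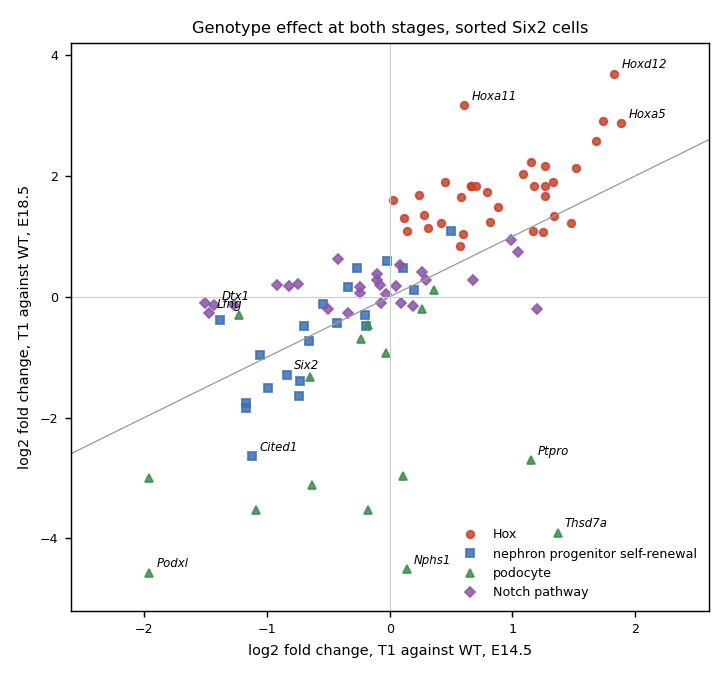
Log2 fold change of Six2-ENL T1 over ENL WT at E14.5 (x axis) and at E18.5 (y axis) for Hox, nephron progenitor, podocyte and Notch pathway genes, 1 point per gene. The grey line marks equal effects, and *Hoxa13* and 1 podocyte gene are left out. Most *Hox* genes lie above the line and most podocyte genes below it. Notch pathway genes called lower at E14.5 lie at the left, and none of that list was called lower at E18.5.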

How the data were processed

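Cells positive for tdTomato were sorted from E14.5 kidneys, and RNA was amplified with SMART-Seq v4 and sequenced in pairs. The authors deposited raw gene counts, made with HISAT2 on mm10 and HTSeq without regard to strand, 1 alignment per read. The counts were tested with edgeR 4.0.16 (R 4.3.3) by its quasi-likelihood test, with normalisation by the trimmed mean of M-values and filterByExpr (at least 10 counts in enough libraries, 15 in all), on 3 against 3 libraries without covariates. Of 54752 genes, 29 of which had no symbol, 22387 were tested, and p-values were adjusted over all tested genes by Benjamini-Hochberg. A call needed a change over 1.5-fold with adjusted p under 0.05. The difference between stages was a term of a fit to 12 sorted libraries, with no fold threshold. Precision is set by 115625561 to 137888792 counts per library and 3 libraries per group. The scripts were tested on simulated data.

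The comparison, its members and the gene lists were chosen with earlier results of these data known, so list counts are descriptions beside the percentages over all genes, and no list was tested as a set. Of each list the text names the called members with the largest change (at most 6 in a direction) and those the study names, and over all genes the 15 largest changes and the 5 smallest p in each direction. Some of these are given by count alone, and some results are not reported here. For genes with 3 or fewer counts per library in a group, the E14.5 change is given without a fold or as a bound. Differences between stages are given for *Gm38329*, *Dpt* and *Gm38344* all the same, and depend on the prior count. Gene coordinates and the share of exon length that overlaps another gene were taken from GENCODE vM21. Windows of 100 bases before transcription starts are from RefSeq (GRCm38.p6), which held 5 of the 10 genes looked for. The alternatives were edgeR's exact test, DESeq2 1.42.0, its size factors, library size alone, no filter or over 1 CPM in 3 libraries, no fold threshold or over 2, a replicate block, all 12 sorted libraries in one fit and each library left out. Sex as a covariate was added after seeing the data.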

Additional observations from a re-analysis of the deposited data

Results flagged for a closer look

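The results below stand out because the effect of the genotype differed between the sorted cells of E14.5 and those of E18.5 in the test of that difference (adjusted p under 0.05 over 25222 genes, of which 8.16% passed). Each value is the log2 fold change at E14.5 minus that at E18.5, and stage and dissociation cannot be told apart in all of them.

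Among *Hox* genes the difference was −2.57 for *Hoxa11*, −1.87 for *Hoxd12*, −1.58 for *Hoxb3*, −1.46 for *Hoxb7*, −1.45 for *Hoxa10*, −1.2 for *Hoxa6* and *Hoxb5*, −1.19 for *Hoxd11*, −1.18 for *Hoxd10*, −1.15 for *Hoxa7*, −1.1 for *Hoxb9*, −1.08 for *Hoxb2* and *Hoxb4*, −0.99 for *Hoxa5*, −0.96 for *Hoxa2*, −0.94 for *Hoxa9*, −0.91 for *Hoxc11*, −0.89 for *Hoxa3*, −0.84 for *Hoxd9*, −0.81 for *Hoxb6*, −0.66 for *Hoxc9* and −0.63 for *Hoxc10*. Exon length shared with another gene was 52.9% for *Hoxb3*, 27.3% for *Hoxb2*, 27.1% for *Hoxa3*, 20.4% for *Hoxa7* and 15% for *Hoxa2*. Among progenitor genes it was above 0 for *Cited1* (1.51), *Crym* (0.66) and *Phf19* (0.65), all of which fell more at E18.5, and below 0 for *Meox2* (−1.01), *Sall1* (−0.75), *Pax2* (−0.63) and *Uncx* (−0.52).

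Among the genes called at E14.5 with the largest differences, the effect was above that of E18.5 for *Col4a4* (6.07), which rose by 2.82 ± 0.34 at E14.5 and fell by 3.25 at E18.5, for *Aqp1* (5.68) and for *Thsd7a* (5.27). At E14.5 *Col4a4* and *Aqp1* did not pass the filter of over 1 CPM in 3 libraries, so both rose from a low level. *Gm38329* (6.73) had 0 counts in the ENL WT libraries of E14.5 and 14, 9 and 18 in Six2-ENL T1, at least 4.51-fold higher against 3 counts per library, and *Dpt* (6.0) had at most 1 count per ENL WT library, so both differences depend on the prior count. The effect was below that of E18.5 for *Gm38344* (−5.64), *Tnnt2* (−5.52), *Gm10591* (−5.01), *Rxfp3* (−4.67) and *Itga4* (−3.93). *Gm38344* had at most 2 counts per Six2-ENL T1 library at E14.5, so its difference depends on the prior count too. It was not called at E14.5 without any 1 of 3 libraries. *Itga4*, the integrin subunit α4, which white cells also carry, was at 18.6, 14.2 and 9.86 CPM in ENL WT and 1.5, 3.26 and 3.65 CPM in Six2-ENL T1 at E14.5, and at 8.29, 5.51 and 4.94 CPM against 19.9, 18.7 and 17.6 CPM at E18.5, where 12 of 14 macrophage and white cell markers were called higher too. None of these markers was called at E14.5, and the part of white cells in the difference for *Itga4* was not tested. *Gm10591* was not called at E14.5 when any 1 of 4 libraries was left out, and its E18.5 Six2-ENL T1 libraries ranged from 0.157 to 9.35 CPM.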

How the results depend on the processing

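Counts of called genes kept within 1.5 times of the values given under all choices of test, scaling, filter and covariate. They ranged from 810 (over 1 CPM in 3 libraries) to 1105 (DESeq2) higher and from 450 (library size alone) to 624 (12 libraries in one fit) lower, and higher genes made up 64.3% of calls, or 68.9% with library size alone. Without a fold threshold 1429 genes were called higher and 1455 lower, and 14 BMP pathway genes higher. With a fold over 2, 219 genes were called lower, 5 progenitor genes lower and 4 BMP pathway genes higher. Leaving out 1 library at a time gave 639 to 1015 genes higher and 425 to 500 lower, 22 to 24 *Hox* genes higher, 10 to 12 progenitor genes lower, 6 podocyte genes lower, 11 to 14 Wnt and 7 to 8 BMP pathway genes higher, 10 to 14 stromal transcription factors, 20 to 25 collagens, 12 to 16 matrix genes and 12 to 13 stroma markers higher. The test between stages passed 1327 to 2176 genes with a library left out, the lowest without E18.5 ENL WT replicate 2, and 3020 with DESeq2, 1480 with the replicate block and 2059 as given. Deviations from the group means of same-numbered libraries correlated by 0.079, 0.017 and 0.139. For differently numbered libraries of the 2 groups the correlations were −0.116 to 0.04. Such weak correlations cannot show whether the replicate numbers pair the samples. With the replicate as a block 884 genes were called higher and 478 lower, among them 24 *Hox* genes higher. Of 144 genes named and called, 24 lost the call with a library left out (*Adamts15*, *Aqp1*, *Atp1b1*, *Cdh1*, *Col4a1*, *Egr1*, *Eya1*, *Gm10591*, *Gm38344*, *Hes5*, *Hoxa11*, *Hoxc5*, *Hoxd1*, *Itga6*, *Meis1*, *Nkd1*, *Notch1*, *Nts*, *Ralyl*, *Sema3e*, *Sim1*, *Slco1a4*, *Tshz3* and *Wnt11*) and 2 under the block (*Atp1b1* and *Gm38329*), and none of these changed direction under any of the alternatives. *Hoxb3* and *Pax2*, which were not called, changed sign: *Hoxb3* to −0.02 (without ENL WT replicate 1), and *Pax2* to 0.02 with library size alone, 0.0 with sex as a covariate and 0.09 without Six2-ENL T1 replicate 1, with ranges over left-out libraries of −0.02 to 0.08 for *Hoxb3* and −0.09 to 0.09 for *Pax2*. The depth of 115625561 to 137888792 counts left genes under about 0.0256 CPM at 3 counts or fewer.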

Other observations

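The gene groups in this section were put together after the values had been seen, so their counts are descriptions and are given beside 4.11% of all tested genes higher and 2.28% lower. In the Notch pathway, through which renal vesicle cells are sorted into proximal fates, 7 of 27 genes were called lower and 1 higher. *Dtx1*, a regulator of Notch, fell from 60.7, 71.5 and 60.6 CPM to 23.8, 25.3 and 22.7 CPM (−1.43 ± 0.08, adjusted p = 4.03e-05). *Lfng*, whose glycosyltransferase tunes the receptor, fell from 31.9, 41.4 and 50.3 CPM to 15, 16.9 and 12.7 CPM (−1.47 ± 0.17). The groups were separate for both genes. The receptor gene *Notch1* fell by 0.75 on the log2 scale, a call lost without Six2-ENL T1 replicate 1 (−0.64, adjusted p = 0.051), and *Hey2* rose by 0.99. The sum over the list was 1411.4, 1418.3 and 1461.0 CPM in ENL WT and 1141.2, 1220.7 and 1188.6 CPM in Six2-ENL T1. At E18.5, 2 of the list were called higher and none lower, and the E14.5 effect was below that of E18.5 for 8 genes and above it for 1, with *Dtx1* at −1.3.

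Among 17 genes of retinoic acid metabolism and signalling, 4 were called higher and none lower. *Dhrs3*, which reduces retinal, rose from 35.6, 33.1 and 34.6 CPM to 81.0, 74.5 and 78.6 CPM (1.18 ± 0.06, adjusted p = 2.07e-05), and differed by −0.65 at E18.5. The receptor gene *Rarg* rose by 1.6 and *Crabp1*, for a retinoic acid-binding protein, by 1.34. Of 18 classical and type II cadherins 4 were higher and 1, *Cdh1*, the gene for E-cadherin, lower (−0.88, with adjusted p = 0.0534 without ENL WT replicate 1). Of 24 integrin subunits 3 were lower (*Itga4*, *Itga8* and *Itga6*) and none higher, although *Itga6* was under the 1.5-fold limit without Six2-ENL T1 replicate 1 (−0.53) or ENL WT replicate 3 (−0.56). Among 29 semaphorins, plexins and neuropilins 6 were higher and 1 lower. *Sema3e* rose by 2.17, with adjusted p = 0.0508 without Six2-ENL T1 replicate 1, and differed by −2.51 at E18.5. Of 20 ephrins and Eph receptors 1 was higher and 2 lower, with *Efnb2* among the latter.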
